A study of Mus musculus with 10 samples.

Results

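The miR-290-295 cluster is a row of 7 microRNA (miRNA) hairpins, Mir290a, Mir291a, Mir292, Mir291b, Mir293, Mir294 and Mir295, chosen by name. They are 7 of 1174 annotated hairpins, and their 5p and 3p arms are 14 of the 757 mature arms that had any read in these libraries. Reads of 18 to 26 nt were assigned to an arm when their first 18 bases matched the hairpin exactly in sense, with up to 2 mismatches after that, and arm levels are given as reads per 1000000 of all reads in the library (RPM). Plots name an arm by its hairpin, so that Mir292-5p there is miR-292a-5p here. All 14 arms entered every test of levels, length, start and 3′ end.

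The libraries hold small RNA of cells sorted on Day 6 from embryoid bodies (EBs), in which mouse embryonic stem cells (mESCs) are differentiated towards primordial germ cell-like cells (mPGCLCs). The 10 libraries form 5 groups of 2: mPGCLCs of the lines E14 and BG5, and the surrounding non-PGCLC EB cells of E14, BG5 and SGET. All lines are labelled male. E14 is of the 129/Ola strain and carries no reporter, and the study's methods give its mPGCLCs as Ssea1-positive and Cd61-positive. BG5 carries Blimp1-GFP on a C57BL/6J/DBA/129 background, with mPGCLCs gated as Ssea1-positive and Blimp1-GFP-positive, and SGET carries Stella-GFP and Esg1-tdTomato on a B6CBA/129 background. The labels describe a Stella-GFP and Esg1-tdTomato gate for all mPGCLCs, which only SGET could give, so the gate of each library rests on the methods. Line, strain background and gate change together here and cannot be told apart. The SGET mPGCLCs and the in vivo PGCs of the study were not analysed here.

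miRNAs are cut from hairpins first by Drosha and then by Dicer, and either arm can be loaded into an Argonaute protein, where the bases after the first one, the seed, pair with target mRNAs. The miR-290-295 hairpins are made from 1 primary transcript and are known as the most abundant miRNAs of mouse embryonic stem cells and of the early embryo, where the 3p arms with the AAGUGC seed hold down inhibitors of the G1 to S transition. The cluster is also known to be expressed in primordial germ cells, and it is shut down as cells of the embryo differentiate.

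In the GRCm38 build the cluster spans 2216 bases of the plus strand of chromosome 7, chr7:3218626-3220841. Mir290a (ENSMUSG00000077815.1) lies at chr7:3218626-3218708, outside the neighbouring gene Nlrp12. The other 6 hairpins, Mir291a at chr7:3218919-3219000, Mir292 at chr7:3219189-3219270, Mir291b at chr7:3219482-3219560, Mir293 at chr7:3220343-3220422, Mir294 at chr7:3220641-3220724 and Mir295 at chr7:3220773-3220841, lie antisense to an exon of Nlrp12, which is annotated on the minus strand.

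The mature sequences of RefSeq (GRCm38.p6) are printed because the arms fall into groups by seed, and because the seed is what a shifted start changes. Capitals mark bases 2 to 8. Among the 13 arms matched in that table, 5 share bases 2 to 7 as AAGUGC.
miR-290a-3p: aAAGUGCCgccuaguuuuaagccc
miR-291a-3p: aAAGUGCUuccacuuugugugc
miR-291b-3p: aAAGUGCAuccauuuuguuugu
miR-294-3p: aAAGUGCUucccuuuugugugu
miR-295-3p: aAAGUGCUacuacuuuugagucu

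Another 5 arms, all of them 5p, share CUCAAA at bases 2 to 7.
miR-290a-5p: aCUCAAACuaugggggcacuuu
miR-292a-5p: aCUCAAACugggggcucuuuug
miR-293-5p: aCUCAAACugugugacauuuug
miR-294-5p: aCUCAAAAuggaggcccuaucu
miR-295-5p: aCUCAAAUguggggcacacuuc

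A further 2 arms share AUCAAA, and miR-293-3p alone has GUGCCG. The AUCAAA arms differ at 2 positions, C1G and U22C counted from the 5′ end of miR-291a-5p, so their reads are told apart mainly by the first base.
miR-291a-5p: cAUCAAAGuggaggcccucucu
miR-291b-5p: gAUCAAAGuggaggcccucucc
miR-293-3p: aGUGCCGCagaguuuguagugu

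The cluster as a whole made up most miRNA reads in both cell types of E14 and under 50% of them in the other groups. Of all reads it held 22.4% and 19.6% in E14 mPGCLC replicates 1 and 2, 7.12% and 4.85% in BG5 mPGCLCs, 13.5% and 9.32% in E14 non-PGCLCs, 0.780% and 0.906% in BG5 non-PGCLCs, and 14.6% and 16.1% in SGET non-PGCLCs. The group means were 21.0% ± 1.95 (SD, n = 2), 5.98% ± 1.61, 11.4% ± 2.94, 0.843% ± 0.0887 and 15.3% ± 1.10. No 2 groups overlapped in this share, although E14 and SGET non-PGCLCs lay close to each other. Of miRNA reads alone the cluster made up 65.0% and 62.1% in E14 mPGCLCs, 32.8% and 32.4% in BG5 mPGCLCs, 58.5% and 52.1% in E14 non-PGCLCs, 2.40% and 4.2% in BG5 non-PGCLCs, and 48.8% and 49.6% in SGET non-PGCLCs. In bulk samples fewer cells that express the cluster and less cluster RNA per cell cannot be told apart.

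The libraries held 7421061 to 14444567 reads, of which 15% to 34.5% lay in miRNA hairpins. The BG5 non-PGCLC libraries stood apart from the rest. A list of 4 mesenchymal hairpins (Mir199a-1, Mir199a-2, Mir199b and Mir214), all 4 with reads, summed to 22031 and 13165 RPM there and to between 19.0 and 1242 RPM in the other 8 libraries. The epithelial miR-200 list, with 5 of 5 hairpins present, lay between 1114 and 4337 RPM over the 10 libraries, with no group near 0. The part of the mesenchymal difference in the cluster's low level in BG5 non-PGCLCs was not tested, and the comparisons that can be made without those libraries are also given from a fit that leaves them out. No source states that the 2 libraries of a group came from separate cultures, so p-values measure the spread between these libraries only.

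miR-292a-5p led the cluster in every library. Its level was 150300.0 and 117838 RPM in E14 mPGCLCs, 41191 and 26276 RPM in BG5 mPGCLCs, 87003 and 56904 RPM in E14 non-PGCLCs, 4803 and 4767 RPM in BG5 non-PGCLCs, and 89082 and 96286 RPM in SGET non-PGCLCs. It made up 52.6% to 67.1% of cluster reads. The 5p arms together took 70.0% to 78.5% of them, and the CUCAAA arms 66.7% to 77.4%. The 5 AAGUGC arms among the 13 matched took 8.05% to 11.1%, and miR-292a-3p, which was not put into a seed group, 7.54% to 10.3%. Reads of miR-292a-3p that start at hairpin position 50, 42.1% to 58.5% of the arm, also hold AAGUGC at bases 2 to 7, so the share of the 5 arms is less than that of all cluster reads with this hexamer. The CUCAAA arms thus led in all 10 libraries, although the cluster's level differed between groups.

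Next in most libraries came the other strand of the same hairpin, miR-292a-3p, and miR-290a-5p. miR-292a-3p had 18294 and 18803 RPM in E14 mPGCLCs, 6228 and 4859 RPM in BG5 mPGCLCs, 11581 and 9621 RPM in E14 non-PGCLCs, 589 and 877 RPM in BG5 non-PGCLCs, and 13085 and 14154 RPM in SGET non-PGCLCs. miR-290a-5p had 16735 and 15217 RPM, 5058 and 5043 RPM, 8830 and 7097 RPM, 539 and 867 RPM, and 8674 and 12396 RPM in the same order of groups. These arms kept within 7.54% to 10.3% and 5.95% to 10.4% of cluster reads, and miR-292a-3p was above miR-290a-5p in all libraries but BG5 mPGCLC replicate 2.

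Among the 5 AAGUGC arms printed above, miR-294-3p was the most abundant in each library. It had 11185 and 10623 RPM in E14 mPGCLCs, 4620 and 2863 RPM in BG5 mPGCLCs, 7449 and 4477 RPM in E14 non-PGCLCs, 376 and 622 RPM in BG5 non-PGCLCs, and 7121 and 10475 RPM in SGET non-PGCLCs. miR-295-3p had 5323 and 5374 RPM, 1834 and 1466 RPM, 3382 and 2735 RPM, 165 and 174 RPM, and 2610 and 4198 RPM in that order. miR-291a-3p had 3577 and 3125 RPM, 1398 and 769 RPM, 2275 and 1314 RPM, 84.2 and 73.7 RPM, and 1880 and 1437 RPM. In all 3 arms both E14 mPGCLC libraries lay above both BG5 mPGCLC libraries, and both BG5 non-PGCLC libraries lay below all others.

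The Mir293 arms, of which the 3p carries a seed of its own, followed the same order. miR-293-3p had 9610 and 13468 RPM in E14 mPGCLCs, 5201 and 3707 RPM in BG5 mPGCLCs, 7089 and 5705 RPM in E14 non-PGCLCs, 523 and 945 RPM in BG5 non-PGCLCs, and 7464 and 7927 RPM in SGET non-PGCLCs. Its partner miR-293-5p had 3865 and 5542 RPM, 2060 and 1262 RPM, 3251 and 2242 RPM, 331 and 295 RPM, and 6581 and 5233 RPM. The highest library was SGET non-PGCLC replicate 1 for the 5p arm and E14 mPGCLC replicate 2 for the 3p arm.

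The remaining 5p arms were less abundant than miR-292a-5p and miR-290a-5p. miR-291a-5p had 2503 and 2977 RPM in E14 mPGCLCs, 1160 and 849 RPM in BG5 mPGCLCs, 1793 and 1456 RPM in E14 non-PGCLCs, 96.6 and 126 RPM in BG5 non-PGCLCs, and 3427 and 3315 RPM in SGET non-PGCLCs. miR-295-5p had 1513 and 2251 RPM, 1105 and 523 RPM, 1428 and 990.1 RPM, 172 and 71.7 RPM, and 2917 and 2761 RPM. For both of these arms SGET non-PGCLCs were above all other libraries. miR-294-5p ranged from 19.7 RPM in a BG5 non-PGCLC library to 964 RPM in an E14 mPGCLC library.

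The rarest arms were miR-290a-3p and miR-291b-3p. miR-290a-3p had 25.5 and 61.4 RPM in E14 mPGCLCs, 4.24 and 14.4 RPM in BG5 mPGCLCs, 25.5 and 36.2 RPM in E14 non-PGCLCs, 0 and 0 RPM in BG5 non-PGCLCs, and 39.6 and 0 RPM in SGET non-PGCLCs. miR-291b-3p had 19.7 and 0 RPM, 28 and 36.0 RPM, 10.5 and 7.05 RPM, 25 and 23.6 RPM, and 85.1 and 62.8 RPM. Whole-length sequences of these arms with at least 4 reads had no fewer than 31 reads each, and a library held at most 5 of them. Their levels therefore rest on few sequences, and each was absent from 1 replicate of a group in which the other had reads.

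**Figure D1:**
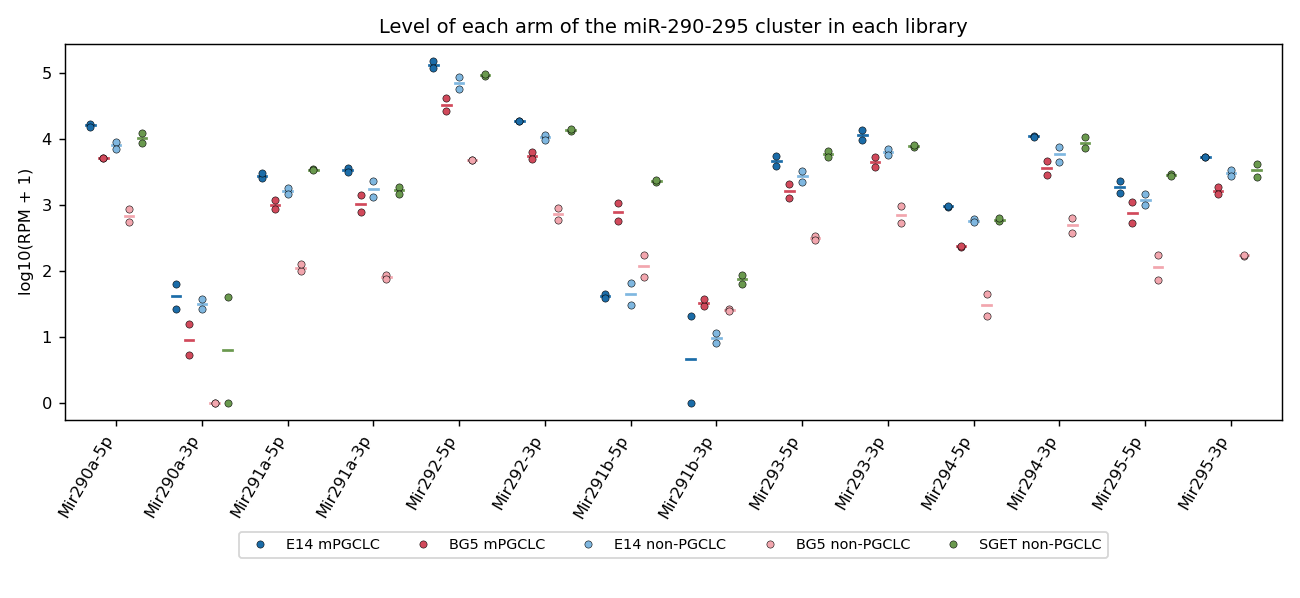
Level of each of the 14 arms in RPM (drawn as log10 of RPM + 1), with 1 dot per library, a bar for the group mean on the plotted scale, and colours for the 5 groups. BG5 non-PGCLC libraries lie lowest for 11 arms, and miR-291b-5p breaks the order, with both cell types of E14 at 28.8 to 65.0 RPM. The share of all arms that lie lowest in these libraries was not counted.

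The first comparison asked whether mPGCLCs differed from the surrounding EB cells, as the mean over E14 and BG5. Of the 14 arms 12 were higher in mPGCLCs, all but miR-290a-3p and miR-291b-3p, by log2 fold changes of 1.46 to 2.60. The edgeR quasi-likelihood test with Benjamini-Hochberg adjustment over 558 arms gave adjusted p-values from 1.67e-08 to 0.00443, and 7.89% of all arms tested were called higher. The median log2 fold change was 2.11 over the 14 arms and 0.16 over all arms. miR-291a-3p changed most among the called arms, with a log2 fold change of 2.60 (SE 0.22, edgeR adjusted p = 9.82e-08), and miR-292a-5p by 2.12 (SE 0.16, edgeR adjusted p = 1.67e-08). The call for miR-291b-5p, at 1.46 (SE 0.34, edgeR adjusted p = 0.00443), was lost when reads had to match the hairpin over their whole length (adjusted p = 0.256).

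Within E14 no arm passed the test between mPGCLCs and non-PGCLCs. Over the 11 arms other than miR-290a-3p, miR-291b-3p and miR-291b-5p the log2 fold changes lay between 0.49 and 0.86. The edgeR test called 0 of 14 arms, against 0.538% of all arms called higher, with 8 of the 14 and 12.7% of all arms at an unadjusted p under 0.05. DESeq2 also called 0. The lowest adjusted p was that of miR-292a-5p, 0.0699 for a log2 fold change of 0.76 (SE 0.21). miR-290a-5p had the largest difference, 0.86 (SE 0.31, edgeR adjusted p = 0.198). The count was not stable. With no filter on low counts 5 arms passed (1.19% of all arms called higher), with the replicate number as a block 3 (1.25%), and with both BG5 non-PGCLC libraries left out, a setting chosen after seeing the data in which 2.31% of all arms were called higher, 5 (miR-290a-5p, miR-292a-3p, miR-292a-5p, miR-293-3p and miR-294-3p). Leaving out 1 library in turn gave 0 to 5 arms, and 0 only without E14 mPGCLC replicate 1 or E14 non-PGCLC replicate 2. For these 5 arms both E14 mPGCLC libraries lay above both E14 non-PGCLC libraries. The arms were picked from the same libraries, so this separation adds no support. The share of all arms that separate in this way was not counted. The mesenchymal list summed to 23.6 and 19.0 RPM in E14 mPGCLCs and to 1059.6 and 1242 RPM in E14 non-PGCLCs, and the epithelial list to 1901 and 1984 RPM against 1114 and 1133 RPM. A blood list, with 2 of 5 hairpins present, stood at 37.9 and 58.5 RPM against 5.52 and 1.94 RPM, and an endothelial hairpin at 65.7 and 58.9 RPM against 12.1 and 48.2 RPM. The part of these lists in these differences was not tested.

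Within BG5 the same 12 arms were higher in mPGCLCs, by log2 fold changes of 3.08 to 4.43, where 8.24% of all arms were called higher. The median was 3.50 over the members and -0.02 over all arms. miR-291a-3p again had the largest called difference, 4.43 (SE 0.34, edgeR adjusted p = 2.81e-08), followed by miR-295-3p with 3.97 (SE 0.30, edgeR adjusted p = 2.00e-08). miR-292a-5p differed by 3.48 (SE 0.23, edgeR adjusted p = 1.11e-08) and miR-293-5p by 3.08 (SE 0.29, edgeR adjusted p = 2.33e-07). miR-290a-3p, absent from both BG5 non-PGCLC libraries, was at least 35.5-fold higher in BG5 mPGCLCs when the floor is set at 3 counts per library, and did not pass the test (edgeR adjusted p = 0.0808). It passed with no filter (adjusted p = 0.0232), in DESeq2 (adjusted p = 1.59e-16) and without any one of 6 libraries, with adjusted p-values from 0.00403 to 0.0283 there. These calls compare against the libraries with the high mesenchymal list. The epithelial list was higher in BG5 mPGCLCs, with 4337 and 3172 RPM against 1399 and 1386 RPM, as was a neural list, with 3 of 6 hairpins present, at 310.0 and 229 RPM against 42.6 and 53.9 RPM, and the part of these lists was not tested.

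The difference of the cell-type effect between the lines was tested itself. It was larger in BG5 for 12 of 14 arms, by 2.45 to 3.67 on the log2 scale, with 3.76% of all arms called in that direction and a median of 2.93 over the members against 0.00 over all arms. With scaling by total reads in place of TMM the median over all arms was -0.80 for this difference and -0.73 for BG5 mPGCLCs against BG5 non-PGCLCs, and the members' directions did not turn. Under total-read scaling miR-293-5p (1.63, adjusted p = 0.0515) and miR-294-5p (2.16, adjusted p = 0.0972) no longer passed, and with whole-length matches miR-291b-5p did not (3.63, adjusted p = 0.189).

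**Figure D2:**
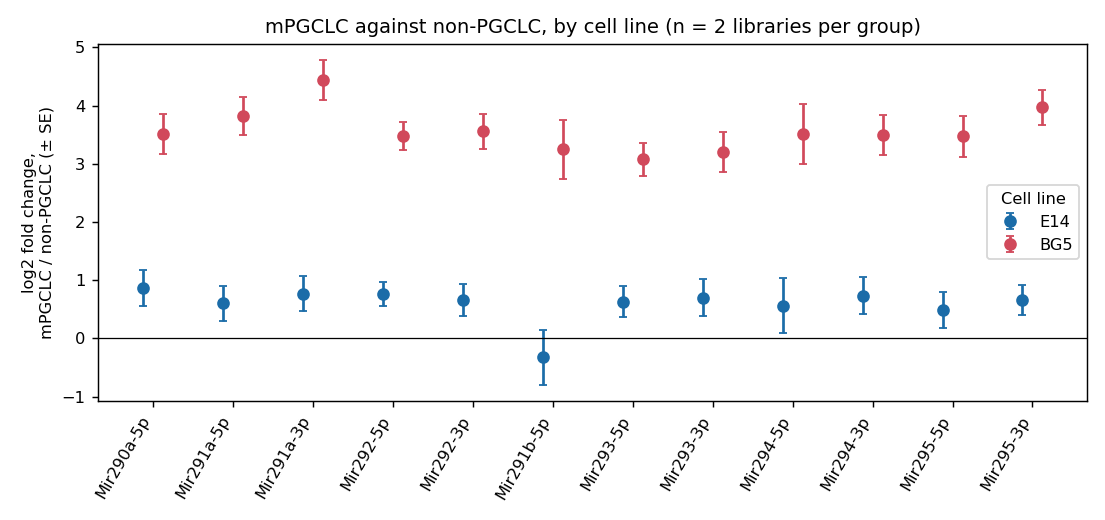
Log2 fold change of mPGCLCs against non-PGCLCs for 12 arms in E14 and in BG5, with bars of 1 standard error from the edgeR fit. The BG5 values lie between 3.08 and 4.43 and the E14 values between -0.32 and 0.86, so that every arm shown is farther from 0 in BG5.

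The mPGCLCs of the lines were then compared with each other, which leaves the non-PGCLC libraries out of the contrast. In BG5 mPGCLCs 11 arms were lower than in E14 mPGCLCs, by log2 fold changes of -1.43 to -2.18, with 4.84% of all arms called lower. miR-292a-5p had the largest difference, -2.18 (SE 0.22, edgeR adjusted p = 2.56e-06), and miR-295-5p the smallest of those called, -1.43 (SE 0.32, edgeR adjusted p = 0.00466). A single arm was higher, miR-291b-5p, by 4.12 (SE 0.53, edgeR adjusted p = 2.43e-05), with 5.2% of all arms called higher. Marker lists differed between these groups too, and their part was not tested. The mesenchymal list summed to 144 and 116 RPM in BG5 mPGCLCs against 23.6 and 19.0 RPM in E14 mPGCLCs, the epithelial list to 4337 and 3172 RPM against 1901 and 1984 RPM, and an endodermal list, with 5 of 6 hairpins present, to 339.6 and 90.4 RPM against 39.8 and 11.4 RPM. The blood list was lower in BG5, at 18.9 and 12.9 RPM against 37.9 and 58.5 RPM. Without both BG5 non-PGCLC libraries in the fit, 12 arms were called as before (4.42% of all arms called higher and 7.31% lower), with miR-291b-5p at 4.03 and miR-292a-5p at -2.28. The call for miR-295-5p was lost without E14 mPGCLC replicate 2 (-1.17, adjusted p = 0.0502) and without BG5 mPGCLC replicate 2 (-1.21, adjusted p = 0.0747), and under total-read scaling (-1.21, adjusted p = 0.106), and that for miR-294-5p without BG5 mPGCLC replicate 1 (-1.82, adjusted p = 0.0618).

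Among the non-PGCLC cells of the 3 lines, 12 of 14 arms differed in a test over the 3 groups, in which 19% of all arms were called. The pairs of lines were set up after seeing the data. BG5 non-PGCLCs were lower than E14 non-PGCLCs in 12 arms, with 7.17% of all arms called lower and a median of -4.65 over the members against 0.13 over all arms. Scaling by total reads moved that background median to 1.18. miR-292a-5p differed by -4.90 (SE 0.25, edgeR adjusted p = 1.10e-10). miR-290a-3p, at least 117-fold lower against the floor of 3 counts, passed narrowly (edgeR adjusted p = 0.0443) and not under total-read scaling (adjusted p = 0.0707), and miR-291b-5p did not pass, with 0.55 (SE 0.47, edgeR adjusted p = 0.475). Of the marker lists, the neural list was lower in BG5 than in E14 non-PGCLCs without overlap. The mesenchymal, endothelial, blood, epithelial and endodermal lists were higher without overlap, and the muscle list overlapped. The part of these lists was not tested.

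SGET and E14 non-PGCLCs differed in 1 arm. miR-291b-5p was higher in SGET by 5.14 (SE 0.56, edgeR adjusted p = 1.00e-05), with 1.79% of all arms called higher. The other 11 arms with steady counts lay between -0.57 and 0.76, with a lowest adjusted p of 0.255, and at 2 libraries a group these values do not show that the lines are alike. In a further fit without both BG5 non-PGCLC libraries miR-291b-5p differed by 5.24 and was the 1 arm called, with 3.46% of all arms called higher. The mesenchymal list stood at 427 and 425 RPM in SGET non-PGCLCs, below E14 non-PGCLCs. The epithelial list was higher in SGET, with 3031 and 2693 RPM against 1114 and 1133 RPM, and so was the blood list, at 59.8 and 79.2 RPM against 5.52 and 1.94 RPM. The endothelial, muscle, neural and endodermal lists did not overlap between these groups either. The part of these lists was not tested. SGET non-PGCLCs were higher than BG5 non-PGCLCs in 12 arms, by 3.82 to 5.40, with 8.78% of all arms called higher and the largest value for miR-291a-5p (SE 0.36, edgeR adjusted p = 1.89e-09). For miR-290a-3p the SGET mean was 75.4-fold above the floor, on the reads of 1 library, with 0 reads in the other. This arm did not pass (edgeR adjusted p = 0.0503), although it did with no filter (adjusted p = 0.0103).

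Mir291b was the member that departed from the others. Its 5p arm had 44.1 and 37.5 RPM in E14 mPGCLCs, 1077 and 570.1 RPM in BG5 mPGCLCs, 65.0 and 28.8 RPM in E14 non-PGCLCs, 80.1 and 172 RPM in BG5 non-PGCLCs, and 2207 and 2363 RPM in SGET non-PGCLCs. The 4 E14 libraries were thus below all others, also below the BG5 non-PGCLC libraries, in which 11 arms of the cluster were lowest (share over all arms not counted). Set against miR-291a-5p, the near-identical arm of the neighbouring hairpin, miR-291b-5p amounted to 1.76% and 1.26% in E14 mPGCLCs, 92.9% and 67.2% in BG5 mPGCLCs, 3.62% and 1.98% in E14 non-PGCLCs, 82.9% and 136% in BG5 non-PGCLCs, and 64.4% and 71.3% in SGET non-PGCLCs. Both cell types of E14 were below 4% and all other libraries above 64%.

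Even the few E14 reads were mostly not those of the mature arm. Reads that started at the base where miR-291b-5p starts, position 13 of the hairpin, numbered 4 and 6 in E14 mPGCLCs, 8555 and 5627 in BG5 mPGCLCs, 5 and 7 in E14 non-PGCLCs, 757 and 2481 in BG5 non-PGCLCs, and 31201 and 22874 in SGET non-PGCLCs. That is 22 reads in the 4 E14 libraries against 71495 in the other 6. Reads that started 2 bases earlier numbered 1433 in E14, 94.2% of the arm's reads there, and 751 in the other lines, 1.03%. By library they were 360 and 232, 330 and 15, 477 and 364, 0 and 0, and 279 and 127 in the order of groups above. In RPM this class lay at 28.2 to 64.3 in E14 and at 0 to 19.4 elsewhere, other than 40.0 in BG5 mPGCLC replicate 1, the 1 library through which the lines overlapped. It was made up of 6 or fewer distinct sequences in each library. The share of reads with another start differed among the 5 groups (edgeR adjusted p = 0.00181), the 1 arm of the 14 to pass, with 1.05% of all arms called, and this call was lost with the replicate number as a block (adjusted p = 0.266).

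The hairpin is printed with the mature arms in capitals, to show where these reads start. The reads that begin 2 bases early carry another seed than the mature arm, and so does a read of the 3p arm that begins 4 bases early. That 3p sequence had 135 reads in E14 mPGCLC replicate 1, 89 in E14 non-PGCLC replicate 2 and 66 in BG5 mPGCLC replicate 2, which is 82.8%, 97.8% and 17.9% of the arm's reads, and 0 in the other 7 libraries, so that it was absent from 1 replicate of each E14 group. Capitals in the reads mark bases 2 to 8.
Mir291b hairpin: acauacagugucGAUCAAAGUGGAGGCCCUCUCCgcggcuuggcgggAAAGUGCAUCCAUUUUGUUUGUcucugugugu
miR-291b-5p read at its own start: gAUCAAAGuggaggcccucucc
read starting 2 bases earlier: uCGAUCAAaguggaggcccucu
miR-291b-3p read starting 4 bases earlier: cGGGAAAGugcauccauuuugu

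Because reads with a mismatch in their first 18 bases were not counted, reads at a distance of 1 base from the start of miR-291b-5p were looked up as well, after the low E14 level had been seen. With the mismatch at bases 2 to 18 there were 1, 0, 0 and 0 such reads in the 4 E14 libraries, and 6 to 504 in the other 6. With the first base of miR-291a-5p there were 12568 to 23586 in E14, and these are counted as miR-291a-5p, from which a miR-291b-5p read with that base could not be told apart by its first 18 bases. The E14 reads that start 2 bases earlier match the hairpin over their first 18 bases, so they carry its base where miR-291b-5p begins. Whether the hairpin differs in sequence in the 129/Ola strain of E14 was not otherwise examined. Reads that map to the genome with more than 2 mismatches are not in the deposited tables.

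**Figure D3:**
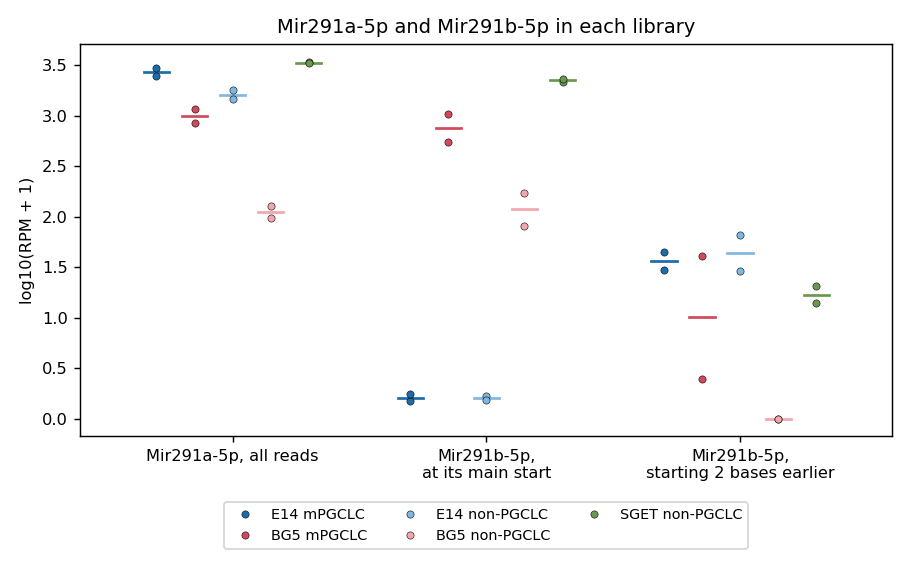
Level in each library, as log10 of RPM + 1, of miR-291a-5p, of miR-291b-5p reads at the arm's own start and of miR-291b-5p reads that start 2 bases earlier, with 1 dot per library and a bar for the group mean on the plotted scale. Own-start reads lie at 0.483 to 0.746 RPM in E14 and at 80.1 to 2340.0 RPM in the other libraries, while the early-start class lies at 0 to 64.3 RPM and overlaps between lines through BG5 mPGCLC replicate 1.

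Arm usage, the share of a hairpin's reads that come from its 3p arm, differed between hairpins. Mir290a gave 0% to 0.507% from the 3p arm and Mir292 10.9% to 15.6%. Mir294 gave 89.2% to 95.3%, the opposite preference. Mir291b, whose 3p reads are few and which is not plotted, gave 30.9% and 0% in E14 mPGCLCs, 2.53% and 5.94% in BG5 mPGCLCs, 13.9% and 19.7% in E14 non-PGCLCs, 23.8% and 12.1% in BG5 non-PGCLCs, and 3.71% and 2.59% in SGET non-PGCLCs. Mir291a, Mir293 and Mir295 were mixed. Mir291a gave 58.8% and 51.2% in E14 mPGCLCs, 54.7% and 47.5% in BG5 mPGCLCs, 55.9% and 47.4% in E14 non-PGCLCs, 46.6% and 36.9% in BG5 non-PGCLCs, and 35.4% and 30.2% in SGET non-PGCLCs. SGET was lowest there and did not overlap with any other group.

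Mir293 gave 71.3% and 70.8% in E14 mPGCLCs, 71.6% and 74.6% in BG5 mPGCLCs, 68.6% and 71.8% in E14 non-PGCLCs, 61.3% and 76.2% in BG5 non-PGCLCs, and 53.1% and 60.2% in SGET non-PGCLCs. Mir295 gave 77.9% and 70.5%, 62.4% and 73.7%, 70.3% and 73.4%, 49.0% and 70.9%, and 47.2% and 60.3%. The low share of SGET libraries recurred in both hairpins, but for Mir295 it overlapped with BG5 non-PGCLCs. In the edgeR test of both arms' counts, 0 of 7 hairpins differed among the 5 groups and 0 of 7 between mPGCLCs and non-PGCLCs. None of them was at an unadjusted p under 0.05 in either test, limma called 0, and 0% of the 219 hairpins tested were called in each. Of all hairpins tested, 1.83% and 2.28% were at an unadjusted p under 0.05 in these edgeR tests, in that order. The lowest unadjusted p for mPGCLCs against non-PGCLCs was 0.184, for Mir290a. The tests thus called no difference between the 5p and 3p arms of a hairpin in their change between groups, as for all hairpins tested. This does not show that usage was equal.

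**Figure D4:**
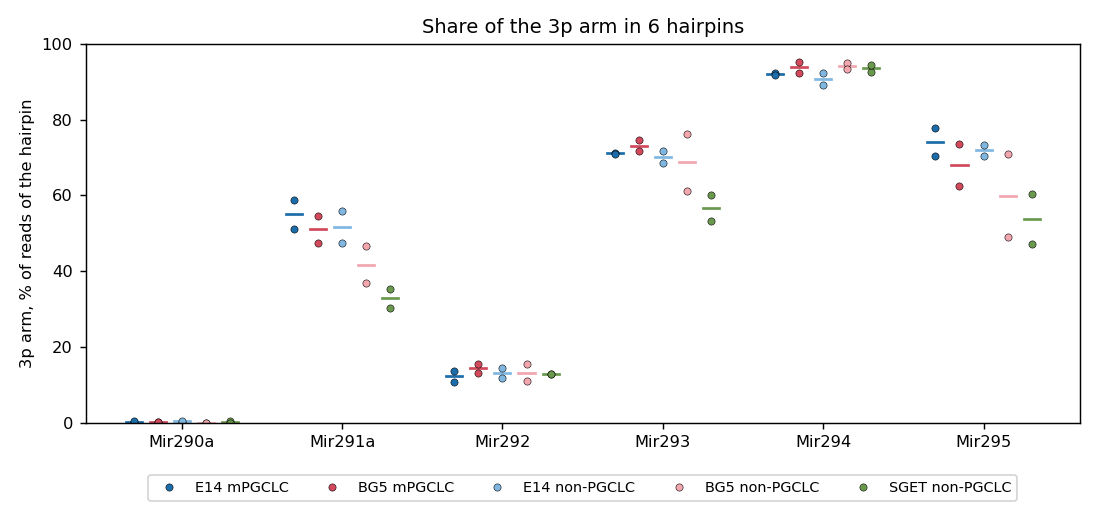
Share of the 3p arm in the reads of 6 hairpins, in percent, with 1 dot per library and a bar for the group mean. Mir290a and Mir292 lie below 16%, Mir294 above 89%, and the SGET non-PGCLC libraries lie lowest for Mir291a, at 35.4% and 30.2%.

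Most arms had 22 nt as their most frequent length. It was 21 nt for miR-292a-5p and miR-293-5p, and 23 nt for miR-292a-3p, miR-295-5p and miR-295-3p. miR-294-3p was the most uniform of the abundant arms, with 88.6% to 96.8% of its reads at 22 nt. miR-290a-5p was spread out, with 39.2% of reads over all libraries at 22 nt, 31.6% at 23 nt and 20.3% at 24 nt. Its reads longer than 22 nt made up 50.8% and 54.8% in E14 mPGCLCs, 55.4% and 60.1% in BG5 mPGCLCs, 60.3% and 57.7% in E14 non-PGCLCs, 71.0% and 71.7% in BG5 non-PGCLCs, and 53.6% and 56.3% in SGET non-PGCLCs. BG5 non-PGCLCs were highest without overlap, and the test over the 5 groups did not pass (edgeR adjusted p = 0.268).

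miR-292a-5p had fewer long reads in mPGCLCs than in non-PGCLCs of the same line. Its reads longer than 21 nt made up 39.3% and 41.1% in E14 mPGCLCs, 39.3% and 39.3% in BG5 mPGCLCs, 46.2% and 45.4% in E14 non-PGCLCs, 49.1% and 50.7% in BG5 non-PGCLCs, and 40.5% and 42.2% in SGET non-PGCLCs. In both lines that gave both cell types the groups did not overlap, whereas SGET non-PGCLCs lay next to the mPGCLCs. The log2 ratio of long to other reads was lower in mPGCLCs by -0.48 (SE 0.08, edgeR adjusted p = 4.79e-05), 1 of 14 arms called lower where 0.251% of the 398 arms tested were. The call was lost when reads had to match the hairpin over their whole length (-0.34, adjusted p = 0.104).

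miR-295-3p was the 1 arm called with more long reads in mPGCLCs (0.251% of all arms called higher). Its share of reads over 23 nt was small, 2.35% and 2.21% in E14 mPGCLCs, 1.76% and 5.55% in BG5 mPGCLCs, 0.602% and 3.89% in E14 non-PGCLCs, 0% and 0.0397% in BG5 non-PGCLCs, and 1.55% and 6.14% in SGET non-PGCLCs. The log2 difference was 3.68 (SE 0.60, edgeR adjusted p = 4.79e-05). It did not pass without BG5 non-PGCLC replicate 1 (3.35, adjusted p = 0.190), without BG5 non-PGCLC replicate 2 (4.65, adjusted p = 0.154), without E14 non-PGCLC replicate 1 (3.0, adjusted p = 0.0581) or in limma (3.39, adjusted p = 0.224). E14 mPGCLCs and E14 non-PGCLCs overlapped.

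Over the 5 groups, the share of long reads differed for 5 of 14 arms, miR-291b-5p, miR-292a-5p, miR-294-3p, miR-295-5p and miR-295-3p, where 1.76% of all arms were called. miR-295-5p had 49.6% and 63.9% of reads over 23 nt in BG5 non-PGCLCs and 5.25% to 15.6% in the other libraries (edgeR adjusted p = 0.0169). miR-294-3p reached 11.3% over 22 nt in BG5 non-PGCLC replicate 1 and 2.57% in replicate 2, with 0.721% to 2.53% elsewhere (edgeR adjusted p = 0.0260). Without BG5 non-PGCLC replicate 1 the adjusted p of miR-294-3p was 1.0 and that of miR-295-5p 0.374, and 2 arms passed. Without BG5 non-PGCLC replicate 2 they were 0.112 and 1.0, and 1 arm passed.

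**Figure D5:**
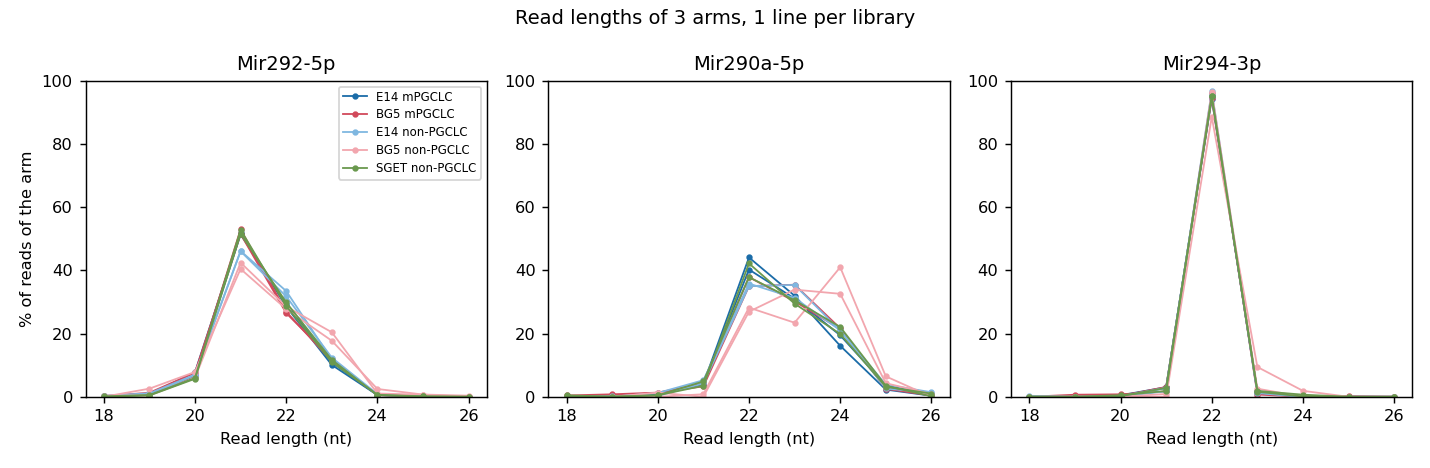
Read length in nt against the share of an arm's reads in percent for miR-292a-5p, miR-290a-5p and miR-294-3p, with 1 line per library, coloured by group. miR-294-3p peaks at 22 nt in all groups, miR-292a-5p at 21 nt, and miR-290a-5p spreads over 22 to 24 nt, with its highest share at 24 nt in BG5 non-PGCLC replicate 1 and at 23 nt in replicate 2.

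The 5′ start was nearly fixed for most arms and split for a few, and a shift of the start gives another seed. miR-292a-3p began at hairpin position 50 in 42.1% to 58.5% of reads and at position 51 in 41.4% to 57.2%, so that neither start led in all libraries. miR-295-3p began at position 43 in 78.2% of reads and 1 base later in 19.3%. miR-295-5p began at position 7 in 87.2% and 1 base earlier in 9.97%, a share that reached 55.4% in BG5 non-PGCLC replicate 2. Its adjusted p for a difference among groups was 1.0. For miR-294-5p 4.59% of reads started 1 base earlier, and miR-292a-5p kept 95.0% to 98.1% of its reads at 1 start. Reads of miR-295 are printed as examples of a shift that moves the seed by 1 base, with bases 2 to 8 in capitals.
miR-295-3p main start: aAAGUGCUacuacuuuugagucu
miR-295-3p 1 base later: aAGUGCUAcuacuuuugagucu
miR-295-5p main start: aCUCAAAUguggggcacacuucu
miR-295-5p 1 base earlier: gACUCAAAuguggggcacacuucu

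Reads whose 3′ end departed from the hairpin, with 1 or 2 mismatches after base 18, were frequent for some arms and rare for others. The median share over libraries was 43.2% for miR-291b-5p, 26.8% for miR-292a-5p, 18.5% for miR-291a-3p, 18.1% for miR-291a-5p and 15.9% for miR-290a-5p. It was 1.69% for miR-294-3p, 2.76% for miR-293-3p, 3.02% for miR-295-3p, 3.01% for miR-294-5p and 3.71% for miR-293-5p. The last base of the read was its only mismatch to the hairpin and was A in 13.1% of all miR-292a-5p reads and U in 6.75%. Reads with 2 mismatches are not in these shares. For miR-291a-3p the order was the other way round, with U in 11.2% and A in 4.57%.

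The 3′ mismatch share of miR-292a-5p was 24.5% and 27.6% in E14 mPGCLCs, 26.6% and 25.4% in BG5 mPGCLCs, 26.9% and 28.9% in E14 non-PGCLCs, 37.4% and 37.9% in BG5 non-PGCLCs, and 25.3% and 26.3% in SGET non-PGCLCs. BG5 non-PGCLCs were above all other libraries, which overlapped. It was the 1 arm of 14 that passed the test over the 5 groups (edgeR adjusted p = 0.0158), with 0.509% of 393 arms called. The call was lost with the replicate block (adjusted p = 0.0642) and without any one of 6 libraries, among them BG5 non-PGCLC replicate 2 (adjusted p = 0.0738) and SGET non-PGCLC replicate 2 (adjusted p = 0.146).

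Outside the cluster 13 tested arms hold the AAGUGC hexamer near their 5′ end, among them the miR-302 arms, known from the primed pluripotent epiblast, and the miR-17 family, which promotes proliferation. In the mean of both lines 5 of these 13 were higher in mPGCLCs and 0 lower, Mir20b-5p by 1.24, Mir302b-3p by 1.88, Mir302d-3p by 2.51, Mir467c-5p by 1.31 and Mir93-5p by 1.14 on the log2 scale (highest edgeR adjusted p = 0.0374), where 7.89% of all arms were called higher. Within E14 the edgeR test called 0 of 13, with 1 of them and 12.7% of all arms at an unadjusted p under 0.05 and 0.538% of all arms called higher, and within BG5 5 of 13, with 8.24% called higher. Without both BG5 non-PGCLC libraries in the fit, 1 of the 13 passed within E14, where 2.31% of all arms were called higher, Mir93-5p with 0.86 (SE 0.21, edgeR adjusted p = 0.0422). Mir302b-3p had 245 and 146 RPM in E14 mPGCLCs, 3068 and 2605 RPM in BG5 mPGCLCs, 218 and 221 RPM in E14 non-PGCLCs, 287 and 266 RPM in BG5 non-PGCLCs, and 112 and 66.7 RPM in SGET non-PGCLCs. It was higher in BG5 than in E14 mPGCLCs by 3.71 (SE 0.43, edgeR adjusted p = 8.35e-06), where 11 arms of the miR-290-295 cluster were lower. Mir302d-3p was higher there by 3.12 (SE 0.72, edgeR adjusted p = 0.00592), and Mir302a-3p and Mir302c-3p did not pass. In the fit without both BG5 non-PGCLC libraries Mir302b-3p differed by 3.61 and Mir302d-3p by 3.0, both called, and Mir93-5p, not called before, was lower by -0.76 (SE 0.21, edgeR adjusted p = 0.0314).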

How the data were processed

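As the labels and methods state, the authors removed adapters and 4 random bases at each read end with cutadapt 3.2, kept reads of at least 15 nt and mapped them to GRCm38 with STAR 2.5.3a, end to end with up to 2 mismatches, reads with several positions being placed once at random. The deposited files hold raw counts: each distinct read sequence of a library with its number of reads. Since those random bases did not serve to collapse duplicates, counts include PCR copies, and floors cover counting error only. Both instrument types of the study can contribute to a library, and the part of each is not given.

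Reads were assigned to arms of GENCODE vM21 hairpins (GRCm38, 1-based). Arms that shared many equally good reads were merged, and other reads that fitted several arms equally were dropped. The dropped reads numbered 75 to 609 per library, with at most 428 of the cluster, in SGET non-PGCLC replicate 1. Counts per arm were tested with edgeR 4.0.16 in R 4.3.3 (glmQLFit and glmQLFTest, filterByExpr, TMM, total reads as library size, 5 group means over all 10 libraries), with Benjamini-Hochberg adjustment over all arms tested and 0.05 as the threshold. Standard errors are the absolute log2 fold change divided by the square root of F. Arm usage, length (longer than the arm's most frequent length), start and 3′ mismatches were tested as 2 read classes with the library as a term, at 50 reads or more per class. Depth was 7421061 to 14444567 reads per library. The fits were tested on simulated data.

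All 14 arms are named whatever they showed, as are arms with the hexamer outside the cluster and the 5 arms most like the cluster. The members and lists were chosen with earlier results of these data known. Marker lists cover mesenchyme, endothelium, blood, muscle, neural, epithelium and endoderm. The alternatives were DESeq2 1.42.0, limma 3.58.1, other scalings, filters, class minimums, denominators and windows, whole-length matches, the compared samples only, each library left out and the replicate block. Pairs of non-PGCLC lines and leaving out both BG5 non-PGCLC libraries were added after seeing the data.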

Additional observations from a re-analysis of the deposited data

Results flagged for a closer look

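For 12 arms the mPGCLC against non-PGCLC difference was itself different between BG5 and E14, by the interaction contrast of the edgeR fit over all 558 arms. The log2 difference of the effects, BG5 minus E14, was 2.65 for Mir290a-5p (adjusted p = 0.000351), 3.22 for Mir291a-5p (adjusted p = 2.96e-05), 3.67 for Mir291a-3p (adjusted p = 1.27e-05), 2.72 for Mir292-5p (adjusted p = 1.02e-05) and 2.90 for Mir292-3p (adjusted p = 3.16e-05). It was 3.57 for Mir291b-5p (adjusted p = 0.00153, lost with whole-length matches), 2.45 for Mir293-5p (adjusted p = 0.000164), 2.51 for Mir293-3p (adjusted p = 0.00081), 2.95 for Mir294-5p (adjusted p = 0.00831) and 2.76 for Mir294-3p (adjusted p = 0.000285). For Mir295-5p it was 2.98 (adjusted p = 0.000149) and for Mir295-3p 3.31 (adjusted p = 1.02e-05). The calls for Mir293-5p (1.63, adjusted p = 0.0515) and Mir294-5p (2.16, adjusted p = 0.0972) were lost under total-read scaling. All rest on the 2 BG5 non-PGCLC libraries, in which the mesenchymal list was high, and its part was not tested.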

How the results depend on the processing

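Counts of called arms kept within 1.5 times in all alternatives run for the mean of both lines, for BG5, for the difference between lines, for the mPGCLCs of the lines and for the 3-line test. For most alternatives the share of all features called is not given. A rise over the members can thus not be told there from a rise over all features. Leaving out 1 library in turn gave 12 to 13 arms for the mean of both lines, for BG5, for the difference between lines, for the 3-line test and for SGET against BG5 non-PGCLCs, 11 to 12 for BG5 against E14 in mPGCLCs and in non-PGCLCs, 1 to 3 for SGET against E14 (3 without BG5 non-PGCLC replicate 1, 2 without SGET non-PGCLC replicate 2), 0 to 5 within E14, and 0 in both tests of arm usage. It gave 1 to 8 for long reads over groups (8 without BG5 mPGCLC replicate 2, 3 without either E14 mPGCLC library or E14 non-PGCLC replicate 2), 1 to 3 for long reads in mPGCLCs, 1 to 6 for starts (4 and 6 without BG5 non-PGCLC replicates 1 and 2) and 0 to 2 for 3′ mismatches (2 without BG5 non-PGCLC replicate 1).

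Within E14 the count of 0 became 5 with no filter, 5 without both BG5 non-PGCLC libraries and 3 with the block. Long reads over groups fell from 5 arms to 3 at 23 nt or longer and with the block, and to 1 in limma, at a minimum of 500 reads and with whole-length matches. Long reads in mPGCLCs gave 1 arm in place of 2 in the same settings without the block (23 nt, limma, 500 reads, whole-length matches). For starts the count of 1 became 2 in limma, 3 at a minimum of 20 reads, 3 with whole-length matches and 0 with the block, and for 3′ mismatches 0 with the block. The cause was not tested, and shares of all features called are not given for these settings of the read classes.

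Signs turned for 3 arms, none of them called there. Mir291b-3p in the mean of both lines was -1.02 with the block and -4.42 to 1.12 when 1 library was left out (lowest without E14 mPGCLC replicate 1). Within E14 it was -3.15 with the block, -0.079 with the compared samples only, -0.14 in DESeq2, and -10.01 to 1.06 when 1 library was left out (below 0 without E14 mPGCLC replicate 1, E14 non-PGCLC replicate 2 or BG5 non-PGCLC replicate 1). For the difference between lines it was -0.092 with whole-length matches. Mir290a-3p within E14 was -0.40 to 0.74 when 1 library was left out (below 0 without E14 mPGCLC replicate 2 or E14 non-PGCLC replicate 1). Mir291b-5p within E14 was -0.75 to 0.26 (above 0 without E14 non-PGCLC replicate 1), and in BG5 against E14 non-PGCLCs -0.19 with the block and -0.50 to 1.14 when 1 library was left out (below 0 without BG5 non-PGCLC replicate 2).

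No source states whether same-numbered mPGCLC and non-PGCLC libraries came from the same EBs. The deviations of same-numbered libraries correlated with r = -0.0458 in E14 and -0.00445 in BG5 across 558 arms, which are not independent replicates. Such values do not show that the samples were unpaired. The 3p share of Mir291a was higher in replicate 1 in all 5 groups and that of Mir292 lower, while the other hairpins kept no common direction. The levels of miR-290a-3p and miR-291b-3p rest on few sequences.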

Other observations

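Outside the cluster, the 5 tested arms whose log2 RPM followed the summed cluster most closely over the 10 libraries were Mir465c-1/Mir465c-2-5p (Pearson's r = 0.984), Mir871-3p (r = 0.980), Mir672-5p (r = 0.956), the merged Mir465 3p arm (r = 0.939) and Mir150-5p (r = 0.935). These r are descriptions over libraries that share groups. Mir871-3p, of a rodent miRNA cluster on the X chromosome, had 144 and 148 RPM in E14 mPGCLCs, 15.4 and 18.9 RPM in BG5 mPGCLCs, 67.5 and 21.9 RPM in E14 non-PGCLCs, 0 and 0.277 RPM in BG5 non-PGCLCs, and 185 and 188 RPM in SGET non-PGCLCs. Among the cluster's own arms r with the sum was 0.949 to 0.999 for 11, of which miR-292a-5p makes up most of the sum, 0.694 for Mir290a-3p, 0.0545 for Mir291b-5p and -0.224 for Mir291b-3p.

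Of the other marker lists, the neural list summed to 42.6 and 53.9 RPM in BG5 non-PGCLCs and to 0 to 310 RPM elsewhere, the blood list to 1.94 to 82.5 RPM, the muscle list to 5.97 to 232 RPM, the endothelial list to 12.1 to 132 RPM and the endoderm list to 11.4 to 340 RPM over all libraries.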
